A study of Mus musculus with 60 samples.

Results

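The 9 genes described here encode beta-galactosyltransferases that extend glycan chains, 4 of the beta-1,4 family (B4galt1, B4galt2, B4galt3 and B4galt4) and 5 of the beta-1,3 family (B3galt1, B3galt2, B3galt4, B3galt5 and B3galt6). They were found by the RefSeq identifier of each probe set, and all 9 were on the array, with 10 probe sets among the 962 probe sets that could be given 1 of 908 gene symbols. B3galt1 had 2 probe sets, and the one with the higher mean over all arrays stands for the gene. The second B3galt1 probe set and the only one of B3galt2 have an identifier whose ending tells that some of their probes match further transcripts, so their values can include signal from elsewhere.

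Beta-1,4-galactosyltransferases add galactose to N-acetylglucosamine and so build N-acetyllactosamine, the type 2 chain on which sialic acid, fucose and further repeats are placed. B4galt1 is the founding member and also forms lactose synthase with alpha-lactalbumin in the lactating mammary gland. Beta-1,3-galactosyltransferases make the type 1 chain from N-acetylglucosamine, or other linkages: B3galt4 acts on gangliosides, and B3galt6 adds a galactose of the glycosaminoglycan linker that joins heparan and chondroitin sulfate to their proteins.

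The study measured total RNA of mouse tissues with a custom Affymetrix glycan-gene array. It holds 60 arrays of 18 animals, which fall into 18 groups. In the line labelled for St6galnac2, which encodes a sialyltransferase, 3 wild-type (WT) and 3 knockout (KO) animals gave thyroid, lymph node, brain and intestine, except that 1 KO animal gave no intestine. In the line labelled for B4galnt1 and B4galnt2, which encode N-acetylgalactosaminyltransferases, 4 WT and 5 double-knockout (DKO) animals gave thymus, testes, mammary gland and kidney, not every animal each tissue. C57 WT animals, 3 in number and with no sex label, gave brain and small intestine. Both other lines hold males and females, and 3 of the 5 DKO and 1 of the 2 WT mammary glands are from animals labelled male. Age, genetic background and the form of the deletions are not given in the sources used here. Values are log2 RMA values, where a difference of 1 is a doubling of signal. They lay between 2.11 and 14.07 with a median of 5.48, and 25% of them were below 4.21. A level is the signal of 1 probe set, so levels are compared between samples and not between genes. These are bulk samples, so fewer cells of a type and less RNA per cell cannot be told apart.

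Labels and tissue markers were checked first. Over all named probe sets, 56 arrays correlated best with the other arrays of their labelled tissue (median r 0.941, lowest 0.514), and 4 stood apart with r under 0.3. The brain array (1 of 2) and the intestine array of WT animal 9099 each correlated best with the other's tissue (r 0.958 with intestine and 0.947 with brain), and the WT thymus arrays of animals N3740 and N3738 with no tissue above 0.153. Tests left these 4 arrays out, which leaves 1 WT thymus, 2 WT intestines and 3 WT brains, and the calls made in those tissues are also given with all 60 arrays as labelled. The mean level of 6 neural markers was 9.12 in brain and at most 5.93 elsewhere, where Fut9 (10.63) and Ugt8a (8.22) were also high in kidney. That of 4 intestinal markers was 10.33 in intestine and at most 5.31 elsewhere, although one of them, Fut2, was as low there (4.56) as in the other tissues. The germ cell gene Galntl5 was at 11.70 in testes and at most 3.90 elsewhere. Of 7 listed T and NK cell markers 3 were measured, Il7r, Ccr7 and Klrd1. Their mean was 4.46 on the kept thymus arrays, against 8.35 in lymph node, and the connective tissue gene Dcn was at 12.63 in thymus. Cd3e, Cd4, Cd8a and Cd27 were not among the named probe sets, so the low values of these 3 genes do not measure the T cells of the tissue labelled thymus. No thyroid follicle marker was among the named probe sets. The targeted genes did not separate genotypes: St6galnac2, B4galnt1 and B4galnt2 differed by -0.38 to 0.75 in their 12 comparisons, none called. Where their probes lie relative to the deleted parts is not given in the sources used here, so this does not check the genotype labels, and KO and DKO below mean animals so labelled.

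RefSeq promoter windows, 250 bases before to 50 after a transcript start (GRCm38.p6), were found for all 9 genes, 12 windows in all, and 7 are printed for the 4 genes whose tissue levels differed most in brain. Capitals mark matches on either strand to the GC box (GGGCGG or CCGCCC), the CCAAT box (CCAAT or ATTGG), the TATA box (TATAAA or TTTATA) and the cyclic-AMP response element (TGACGTCA). The windows are B4galt1 at chr4:40853935-40854234 on the minus strand, B4galt2 at chr4:117883427-117883726 on the minus strand, B3galt1 at chr2:67565439-67565738 and chr2:68104422-68104721 on the plus strand, and B3galt5 at chr16:96235551-96235850, chr16:96273263-96273562 and chr16:96280782-96281081 on the plus strand.
B4galt1: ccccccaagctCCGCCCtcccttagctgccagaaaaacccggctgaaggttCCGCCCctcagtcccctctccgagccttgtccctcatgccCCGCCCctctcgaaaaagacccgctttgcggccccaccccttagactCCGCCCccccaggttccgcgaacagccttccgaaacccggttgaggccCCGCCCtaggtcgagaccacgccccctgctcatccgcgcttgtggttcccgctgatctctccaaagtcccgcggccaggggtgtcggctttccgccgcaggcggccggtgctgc
B4galt2: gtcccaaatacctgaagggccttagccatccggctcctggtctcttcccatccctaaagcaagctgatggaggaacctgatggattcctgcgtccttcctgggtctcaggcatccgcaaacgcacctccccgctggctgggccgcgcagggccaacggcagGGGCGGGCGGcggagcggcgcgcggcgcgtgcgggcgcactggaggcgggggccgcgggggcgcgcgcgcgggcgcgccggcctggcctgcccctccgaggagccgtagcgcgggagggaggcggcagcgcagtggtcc
B3galt1, upstream start: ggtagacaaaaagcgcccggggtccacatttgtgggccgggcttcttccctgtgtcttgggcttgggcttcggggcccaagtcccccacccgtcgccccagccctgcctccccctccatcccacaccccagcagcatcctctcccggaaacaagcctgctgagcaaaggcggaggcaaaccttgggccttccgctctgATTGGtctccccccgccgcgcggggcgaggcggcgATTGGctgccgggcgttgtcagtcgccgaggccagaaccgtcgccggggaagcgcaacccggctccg
B3galt1, downstream start: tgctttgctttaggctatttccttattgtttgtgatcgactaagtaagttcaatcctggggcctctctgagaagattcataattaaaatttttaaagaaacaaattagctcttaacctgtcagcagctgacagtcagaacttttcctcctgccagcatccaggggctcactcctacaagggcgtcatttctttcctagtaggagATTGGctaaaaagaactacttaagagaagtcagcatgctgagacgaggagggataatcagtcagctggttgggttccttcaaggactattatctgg
B3galt5, start A: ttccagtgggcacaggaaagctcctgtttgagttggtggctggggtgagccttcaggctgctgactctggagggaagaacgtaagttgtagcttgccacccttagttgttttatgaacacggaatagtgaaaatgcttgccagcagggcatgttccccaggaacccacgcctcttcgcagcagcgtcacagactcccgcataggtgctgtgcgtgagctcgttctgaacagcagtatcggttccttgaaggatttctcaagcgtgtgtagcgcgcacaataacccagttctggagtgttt
B3galt5, start B: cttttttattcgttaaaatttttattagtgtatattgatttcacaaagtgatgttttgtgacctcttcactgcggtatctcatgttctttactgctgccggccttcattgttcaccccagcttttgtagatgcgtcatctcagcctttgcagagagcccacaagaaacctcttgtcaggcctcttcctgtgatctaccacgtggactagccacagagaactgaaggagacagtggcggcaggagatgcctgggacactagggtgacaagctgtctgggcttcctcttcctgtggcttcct
B3galt5, start C: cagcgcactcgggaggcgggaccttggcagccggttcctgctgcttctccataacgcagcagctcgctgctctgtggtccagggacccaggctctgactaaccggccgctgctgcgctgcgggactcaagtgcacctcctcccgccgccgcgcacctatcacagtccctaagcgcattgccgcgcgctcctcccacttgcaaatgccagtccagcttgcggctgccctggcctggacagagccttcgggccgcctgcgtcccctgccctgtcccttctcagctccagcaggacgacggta

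The B4galt1 window held 5 GC boxes, and that of B4galt2 held 2, which overlap each other. B4galt3 had 2 and B4galt4 had 1, so each of the 4 beta-1,4 genes had a match, while among the 5 beta-1,3 genes B3galt4 had 1 and the others had none. A GC box is present in 35.7% of all 32851 windows of this length. CCAAT boxes, present in 37.4% of all windows, were found in B4galt4 (1) and at both B3galt1 starts (2 and 1). The response element was in the B4galt3 window only (1.79% of all windows), and none of the 12 held a TATA box (13.6%). The B3galt1 starts differ in base composition, with 26 CpG dinucleotides and 69.0% G+C upstream against 3 and 42.3% downstream, where the median over all windows is 7 and 52.7%. The 3 B3galt5 starts, A to C in genome order, hold 12, 6 and 24 CpG. B3galt6 had the richest window, with 48 CpG, more than 98.8% of all windows. The array does not say which start was used, and a match is a description of letters.

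The first question was how the genes are spread over the 8 tissues. Brain and intestine had the most calls: B3galt1, B3galt5 and B4galt2 were higher in brain than the mean of the other 7 tissues, and B4galt1 was lower. Intestine was higher in B4galt4 and B3galt4 and lower in B3galt1 and B4galt2. Kidney was higher in B3galt5, thyroid in B3galt1, and testes were lower in B4galt4. In all, 12 of 72 gene and tissue pairs passed an adjusted p under 0.05 (limma, adjusted over 962 probe sets) and a log2 difference of at least 1, and B4galt3, B3galt2 and B3galt6 had none. The share of all named probe sets that passed was 33.2% in brain (16.7% higher and 16.4% lower), where 4 of the 9 genes did, and 28.5% in intestine (12.9% higher and 15.6% lower), where again 4 did. In kidney 1 gene was called higher, with 20.4% of all probe sets called (11.4% higher and 8.94% lower), and in thyroid 1 higher, with 13.2% of all called (6.55% higher and 6.65% lower). In testes 1 was called lower, with 27.8% of all called (8.52% higher and 19.2% lower), and in thymus 1 lower, with 13.7% called (8.42% higher and 5.3% lower). None was called in lymph node (19.9% of all called, 11.4% higher and 8.42% lower) or mammary gland (13.8%, 10.7% higher and 3.12% lower). In these 2 tissues 6 and 5 of the 9 had an unadjusted limma p under 0.05, as did 648 and 563 of all 962 probe sets. The median difference of the 9 genes was 0.83 in brain, against -0.19 over all named probe sets, and between -0.32 and -0.07 in the other tissues, against -0.26 to 0.00. Each line gave its own 4 tissues, so line and tissue cannot be told apart across lines, and the values against the other 3 tissues of the same line are given where they matter.

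**Figure D1:**
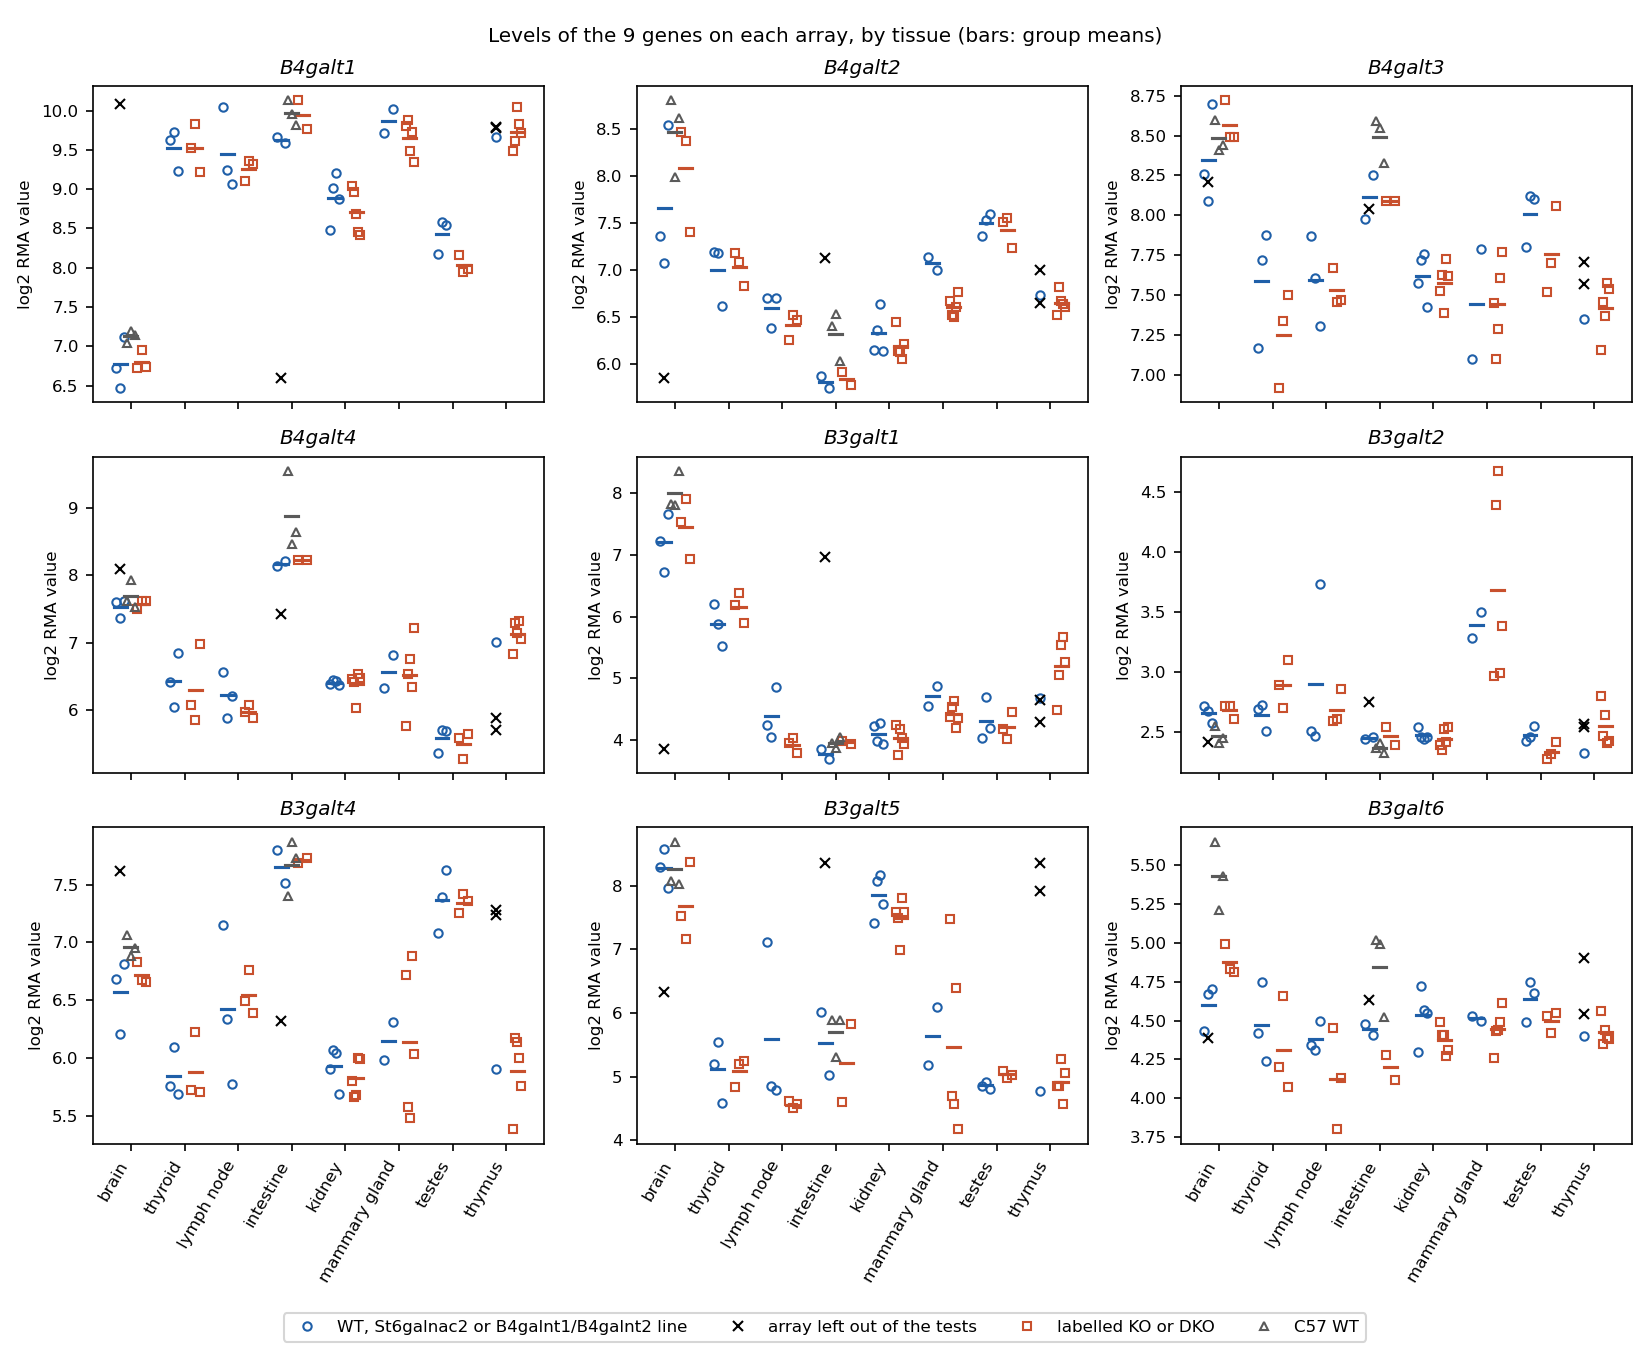
Log2 RMA value (vertical axis) of each gene on each array by labelled tissue (horizontal axis); circles are WT of the 2 knockout lines, squares KO or DKO, triangles C57 WT, crosses the 4 arrays left out of the tests, and short bars group means. B4galt1 lies at 6.47 to 7.20 in the tested brains and at 7.94 or above in the other tissues, and the crosses of animal 9099 lie at 10.09 under brain and 6.60 under intestine.

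B4galt1 was the gene with brain at the bottom. The 6 brains ranged from 6.47 to 7.12 (median 6.73), while the 4 intestines read 9.59, 9.67, 9.77 and 10.13. The 7 mammary glands ranged from 9.35 to 10.02 (median 9.73), and the 6 thymus samples from 9.48 to 10.04 (median 9.69). No brain overlapped a sample of any other tissue. Brain was lower than the mean of the other tissues by 2.52 ± 0.12 (SE; adjusted p = 2.22e-21), a 5.74-fold difference in signal, and by 2.77 ± 0.13 against the other tissues of its line; with all 60 arrays the difference was -2.15 ± 0.22.

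The order of B4galt1 levels was intestine (9.79), mammary gland (9.76), thymus (9.70), thyroid (9.53), lymph node (9.35), kidney (8.80), testes (8.23) and brain (6.79). None of the steps among the 5 highest passed the test, and the steps from lymph node to kidney (0.55 ± 0.14), kidney to testes (0.57 ± 0.14) and testes to brain (1.45 ± 0.15) did. Over several steps intestine did differ from lymph node (0.44 ± 0.17), and lymph node from mammary gland (-0.41 ± 0.15). Testes, at 7.94 to 8.58, were 0.87 ± 0.12 under the mean of the other tissues, short of the difference of 1, and 1.19 ± 0.13 under the other 3 tissues of the line. The C57 arrays, which the fit did not use, lay at 7.04, 7.14 and 7.20 in brain and at 9.82, 9.96 and 10.13 in intestine.

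B4galt2, another N-acetyllactosamine synthase, had the opposite ends. The 6 brains ranged from 7.07 to 8.55 (median 7.90), and the 4 intestines read 5.74, 5.77, 5.87 and 5.91. The 6 testes ranged from 7.23 to 7.60 (median 7.52). The intestines lay under all other tested samples of the 2 knockout lines, and the brains spread widely (SD 0.66, n = 6) and overlapped testes. Brain was higher by 1.22 ± 0.12 (adjusted p = 3.46e-11) and intestine lower by 1.13 ± 0.15 (adjusted p = 1.88e-08). The brain value rests partly on animal 9094, without which it was 0.98, and was 0.94 in WT animals alone, both under the difference of 1. With all 60 arrays brain was at 1.08 ± 0.16 and intestine at -0.90 ± 0.17. C57 brains lay at 7.99, 8.62 and 8.81 and C57 intestines at 6.03, 6.40 and 6.53.

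B4galt3 had a narrow range, from 7.38 in thymus to 8.46 in brain, a difference of 1.07 ± 0.16 that is wider than in 25.8% of the genes. The brains, at 8.09 to 8.72, overlapped the intestines, at 7.98 to 8.25, and the step between the 2 tissues was 0.36 ± 0.15 (adjusted p = 0.0393). Against the mean of the other 7 tissues brain was at 0.83 ± 0.10 and intestine at 0.42 ± 0.12, both with an adjusted p under 0.05 but under a difference of 1.

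B4galt4, which is known for acting on sulfated N-acetylglucosamine, was highest in intestine and lowest in testes. The 4 intestines read 8.13, 8.21, 8.22 and 8.23, and the 6 testes ranged from 5.28 to 5.70 (median 5.61). The 6 brains ranged from 7.36 to 7.62 (median 7.61), between the intestines and all other samples. Intestines were above, and testes below, every other tested sample of the 2 knockout lines. Intestine was higher by 1.69 ± 0.15 (adjusted p = 4.39e-12) and testes lower by 1.35 ± 0.13 (adjusted p = 9.46e-12), and within the lines the values were 1.52 ± 0.16 and -1.13 ± 0.14. With all 60 arrays intestine was at 1.61 ± 0.16. Brain was at 0.95 ± 0.13, and at 1.08 with all 60 arrays. The steps from intestine (8.19) to brain (0.65 ± 0.19), from brain to thymus (0.48 ± 0.20) and from lymph node to testes (0.55 ± 0.17) passed, and those between thymus (7.07) and lymph node (6.10) did not. Over all of those steps lymph node did differ from thymus, by -0.97 ± 0.20. C57 intestines, at 8.46, 8.64 and 9.54, were also above C57 brains, at 7.52 to 7.92.

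B3galt1, which makes type 1 chains, had the widest range of the 9 genes. The 6 brains ranged from 6.72 to 7.90 (median 7.38) and the 6 thyroid samples from 5.53 to 6.38 (median 6.05). The 4 intestines read 3.70, 3.86, 3.94 and 3.99, under the level of 4.21 below which 25% of all values lie. Brains lay above all other tested samples, and thyroid samples above the rest except for DKO thymus samples at 5.55 and 5.68, which overlapped the lowest thyroid. Brain was higher by 2.77 ± 0.13 (adjusted p = 1.47e-20; 2.47 ± 0.25 with all 60 arrays) and thyroid by 1.27 ± 0.13 (adjusted p = 2.97e-10). Intestine was lower by 1.18 ± 0.16 (adjusted p = 4.72e-08), and with all 60 arrays it was at -0.60 ± 0.28 (adjusted p = 0.0534).

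From brain (7.33) to intestine (3.87) the difference in B3galt1 was 3.46 ± 0.20, with the intestine end at the low end of the array's values, where a fold is poorly set. The steps from brain to thyroid (1.31 ± 0.18) and from thyroid to thymus (1.07 ± 0.21) passed, and no step below did. Over several steps, intestine, kidney, lymph node and testes did differ from thymus, by -1.07 ± 0.23 to -0.68 ± 0.21. The second probe set put brain (7.72), thyroid (6.07) and thymus (4.72) in the same order, with a brain to intestine difference of 4.37 ± 0.19, and was also called lower in kidney (-1.08 ± 0.11) and lymph node (-1.29 ± 0.13), where the first was at -0.95 and -0.85. Against the other tissues of its line, which include brain, thyroid was at 0.90 ± 0.15. Chga, the hormone-granule marker fixed as a list of its own, was at 10.87 in thyroid and 10.41 in brain and at most 8.93 elsewhere. Within thyroid Chga differed between KO and WT by -4.14 (not called), and B3galt1 by 0.28 ± 0.17 (second probe set 0.49 ± 0.19). The part of Chga in the B3galt1 result was not tested. C57 brains lay at 7.81, 7.83 and 8.36 and C57 intestines at 3.88, 3.95 and 4.05.

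B3galt2, which also makes type 1 chains, was near the bottom of the array's range in all tissues, and mammary gland was the only tissue with a mean above 3. The 7 mammary glands ranged from 2.97 to 4.67 (median 3.38), while the medians of the other tissues lay between 2.42 and 2.72. The highest mammary glands were those of DKO animals N5893 (4.67) and N5894 (4.39), which had the salivary and lacrimal gland gene Prol1 at 2.54 and 2.61, and the lowest those of N5895 (2.97) and N5892 (2.99), with Prol1 at 12.47 and 9.79. The part of Prol1 in these values was not tested. Among other tissues, the lymph node of WT animal 9094, at 3.73, and the thyroid of KO animal 9093, at 3.10, overlapped the mammary glands. Mammary gland was at 0.96 ± 0.15 against the other tissues (adjusted p = 1.14e-06), short of a difference of 1, and at 1.10 ± 0.16 within its line. The step to lymph node was 0.74 ± 0.19, and no step below passed.

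B3galt4, the ganglioside enzyme, was highest in intestine and testes. The 4 intestines read 7.51, 7.69, 7.73 and 7.80, and the 6 testes ranged from 7.08 to 7.63 (median 7.38). The 6 brains ranged from 6.21 to 6.83 (median 6.68), and the 9 kidneys from 5.66 to 6.07 (median 5.90). Intestines and testes overlapped each other, and of the other tested samples only 1 lymph node, of WT animal 9362 at 7.15, reached into the testes' range. Intestine was higher by 1.36 ± 0.18 (adjusted p = 1.80e-08; 1.06 ± 0.19 with all 60 arrays), and testes were at 0.99 ± 0.15, just under the difference of 1, and at 1.39 ± 0.16 within the line. The step from testes to brain (0.71 ± 0.19) passed and none of the others did, so the levels from brain (6.64) down to thyroid (5.86) were not separated step by step. Over several steps brain was above kidney by 0.77 ± 0.18 and above thyroid by 0.78 ± 0.19, and both passed.

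B3galt5, the main type 1 chain enzyme of epithelia in textbooks, was high in brain and kidney. The 6 brains ranged from 7.16 to 8.57 (median 8.12), and the 9 kidneys from 6.99 to 8.17 (median 7.59). The 6 testes ranged from 4.81 to 5.09 (median 4.95), and the 4 intestines read 4.60, 5.03, 5.82 and 6.02. Brain and kidney overlapped each other and lay above all other tested samples except 1 lymph node and 1 mammary gland described below. Brain was higher by 2.47 ± 0.29 (adjusted p = 9.97e-10) and kidney by 2.12 ± 0.25 (adjusted p = 1.08e-09), and against the other tissues of their lines by 2.80 ± 0.31 and 2.55 ± 0.28. With all 60 arrays brain was at 2.06 ± 0.37. The difference between the 2 tissues was 0.31 ± 0.35 (adjusted p = 0.44), and the step from kidney to mammary gland was 2.12 ± 0.35. No step among the 6 lower tissues passed. Against the mean of the other tissues, testes were at -0.99 ± 0.29, lymph node at -0.85 ± 0.29 and thyroid at -0.82 ± 0.29. Each had an adjusted p under 0.05 but fell short of the difference of 1. Thymus was lower by 1.10 ± 0.37 (adjusted p = 0.0141) and was at -0.03 ± 0.34 (adjusted p = 0.965) with all 60 arrays, where the WT thymus arrays that stood apart read 7.91 and 8.35.

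**Figure D2:**
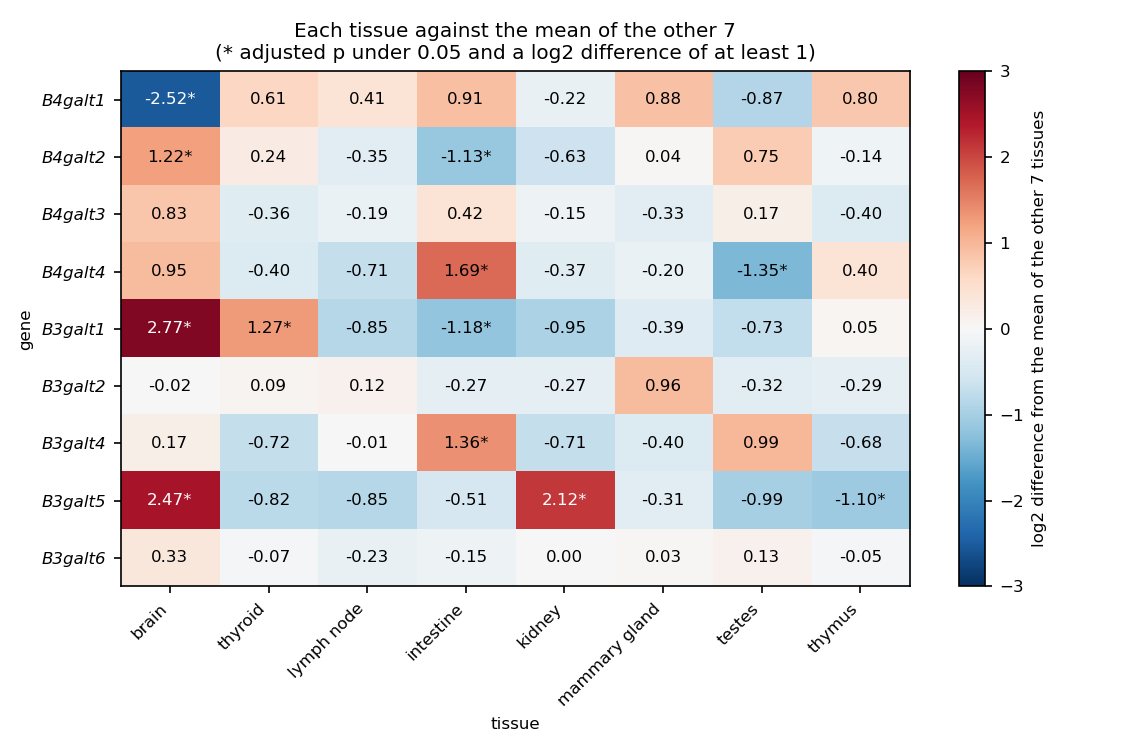
Log2 difference of each tissue (columns) from the mean of the other 7 for each gene (rows); the colour scale and the numbers give the difference, and asterisks mark the 12 called pairs. Brain holds both the highest value (B3galt1, 2.77) and the lowest (B4galt1, -2.52), and no square of the B4galt3, B3galt2 and B3galt6 rows is called.

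Single arrays carried high B3galt5 together with Prol1, a gene of salivary and lacrimal glands. Among the mammary glands B3galt5 read 7.48 in DKO animal N5895, 6.40 in N5892, and 6.09 and 5.18 in the WT animals N9686 and N3738, with Prol1 at 12.47, 9.79, 9.74 and 9.74. In the other 3 DKO animals B3galt5 was at 4.17, 4.57 and 4.70 and Prol1 at 2.52, 2.54 and 2.61. B3gnt6, the other measured gland marker, did not follow: it was at 4.09 to 4.69 on the 4 arrays and at 4.13 to 4.40 on the 3. B3galt5 and Prol1 were thus higher on 4 mammary gland arrays than on the other 3. B3galt4 lay at 6.72 and 6.88 in N5895 and N5892 and between 5.48 and 6.31 in the others.

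The lymph node of WT animal 9362 read 7.11 for B3galt5, with Prol1 at 11.08 and B3gnt6 at 9.43; the other 5 lymph nodes had B3galt5 at 4.50 to 4.85 and Prol1 at 2.41 to 5.12. The WT thymus arrays that stood apart had B3galt5 at 7.91 and 8.35, Prol1 at 13.41 and 13.51 and B3gnt6 at 9.31 and 9.57, against 4.57 to 5.27, 2.50 to 2.61 and 4.13 to 4.52 in the 6 kept thymus arrays. The summed level of both measured gland markers (of 4 listed) was 22.72 to 23.08 on those 2 arrays, 6.75 to 7.02 on the kept thymus arrays, 6.91 to 20.51 in WT and 6.70 to 6.90 in KO lymph nodes. In mammary glands it was 13.83 to 14.42 in WT and 6.68 to 17.05 in DKO, a spread that is nearly all Prol1. Its part in the B3galt5 and B3galt4 values was not tested. In brain and kidney, where B3galt5 was called, that sum stayed between 6.56 and 7.96.

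**Figure D3:**
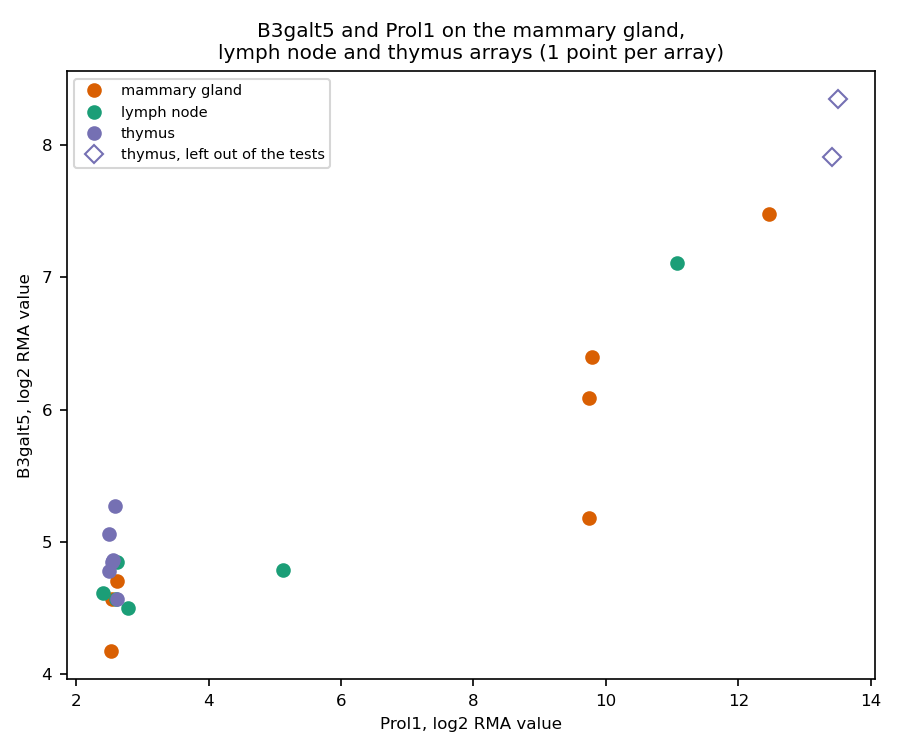
Log2 RMA values of Prol1 (horizontal axis) and B3galt5 (vertical axis), 1 point per array, for mammary gland, lymph node and thymus; open diamonds are the 2 WT thymus arrays left out of the tests. Among those drawn, arrays with Prol1 above 9 have B3galt5 between 5.18 and 8.35, and those with Prol1 at or below 5.12 have it between 4.17 and 5.27. The thyroid array with Prol1 at 6.95 is not drawn.

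B3galt6, the linker enzyme that all proteoglycan-making cells need, was the flattest of the 9. Tissue levels ran from 4.25 in lymph node to 4.74 in brain, a range of 0.49 ± 0.10, and 4.96% of the genes had a smaller one. The brains ranged from 4.43 to 4.99 and the lymph nodes from 3.80 to 4.50, so even the ends of the order overlapped. No step between neighbours passed, and the difference of brain from the other tissues was 0.33 ± 0.07 (adjusted p = 1.60e-04).

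The 3 genes whose 8 tissue levels were most like each member's were found by Pearson correlation over the 8 tissues, as a description. For B4galt1 they were Lgals3 (r 0.90), Clec2d and Klra2, for B4galt2 Fgf22 (0.98), Tsnax and Jag2, and for B4galt3 Wars (0.95), B4galnt4 and Rbm42. For B4galt4 they were its relative B4galt6 (0.93), Fpgt and Bmp2, and for B3galt4 Galnt10 (0.95), Mgat4a and B4galt7. B3galt1 was followed by Gdf1 (0.97), Podxl2 and Angptl6, B3galt2 by Prol1 (0.96, although within mammary gland B3galt2 was lowest where Prol1 was highest), Fgf10 and Il1r2, B3galt5 by Slc35f3 (0.97), Fut9 and Fgfr3, and B3galt6 by Hdac5 (0.96), Magi2 and Golga7. Fut9, a fucosyltransferase that acts on N-acetyllactosamine, shares the brain and kidney pattern of B3galt5: it was higher by 5.07 ± 0.23 in brain and by 6.30 ± 0.20 in kidney.

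Other genes of galactose chains were followed in 4 lists. Over the 8 tissues 10.8% of all named probe set and tissue pairs were called higher and 10.5% lower. Of 7 measured relatives of the families (of 8 listed), 8 of 56 gene and tissue pairs were called higher (14.3%) and 9 lower (16.1%). C1galt1, the core 1 O-glycan galactosyltransferase, was higher in intestine (1.56 ± 0.11) and lower in brain (-1.13 ± 0.09). Its chaperone gene C1galt1c1 was lower in testes (-2.89 ± 0.11). B4galt5, a lactosylceramide synthase, was higher in kidney (1.53 ± 0.14), and B4galt6, the other, was higher in brain (2.72 ± 0.18) and intestine (2.57 ± 0.21).

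Of 11 measured genes in a list of enzymes for N-acetylglucosamine acceptors or branches (of 13 listed), 9 of 88 pairs were higher (10.2%) and 14 lower (15.9%). They include Gcnt3 (3.47 ± 0.13) and B3gnt3 (3.46 ± 0.08) in intestine, Gcnt1 in kidney (4.27 ± 0.23) and B3gnt5, the lactotriaosylceramide synthase, in lymph node (3.62 ± 0.28). The counts also hold B4gat1, which makes no such acceptor or branch, higher in brain (2.14 ± 0.11) and lower in lymph node (-1.28 ± 0.11). Of 6 measured genes of galactose supply and removal (of 8 listed), 5 of 48 pairs were higher (10.4%) and 3 lower (6.25%), among them the lysosomal galactosidases Galc (2.86 ± 0.13) and Glb1 (2.27 ± 0.10) in kidney and Galt in brain (2.02 ± 0.10). Of 12 measured genes that cap galactose or its chain with sialic acid or fucose (of 13 listed), 17 of 96 pairs were higher (17.7%) and 19 lower (19.8%). St3gal4 was higher in intestine (4.23 ± 0.25) and St3gal5, the GM3 synthase, was higher in brain (2.26 ± 0.13) and lower in intestine (-2.47 ± 0.16). The list medians in intestine were 1.28 for the relatives, 0.62 for the acceptor list, -0.04 for supply and removal and -0.29 for capping, against -0.26 over all named probe sets.

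The second question was whether either knockout moved these genes. None of the 72 comparisons of KO or DKO with WT in a tissue was called, with the 56 arrays or with all 60. The test was limma with an adjusted p under 0.05, adjusted for sex except in testes, which are all male. An unadjusted limma p under 0.05 was found for 3: B4galt1 in testes, B4galt2 in mammary gland and B3galt6 in brain. Of all 962 named probe sets, 124 had one in testes (110 lower), 97 in mammary gland (85 lower) and 18 in brain (10 higher). Few genes of the array were called at all: 0% in brain, intestine, lymph node, mammary gland, thymus and thyroid, 0.104% in kidney and 0.312% in testes. The median difference of the 9 genes lay between -0.22 (lymph node) and 0.15 (brain), against -0.11 to 0.04 over all named probe sets. Thymus had 1 WT animal, mammary gland 2 WT animals and intestine 2 animals in each group, which limits the precision there. In simulated data 200 of the 962 probe sets were changed, far more than were called here, which makes the adjusted p easier to pass. There 27% of 2-fold changes were called in intestine, 50% in thymus, 73% in mammary gland and 91% in kidney. These shares therefore do not carry over to the real comparisons. The labels do not say whether the animals of a group are littermates or came from separate litters.

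B4galt1 was at 8.17, 8.55 and 8.58 in WT testes and at 7.94, 7.99 and 8.16 in DKO testes, with no overlap and a gap of 0.01 between the nearest animals. The difference was -0.40 ± 0.14 (limma adjusted p = 0.307), and without WT animal N9700 it was -0.53 ± 0.12 (adjusted p = 0.0126). In DKO kidney, mammary gland and thymus B4galt1 was at -0.10 ± 0.10, -0.23 ± 0.20 and 0.05 ± 0.25.

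B4galt2 was at 7.0 and 7.14 in WT mammary glands and at 6.50, 6.52, 6.60, 6.67 and 6.76 in DKO mammary glands, with no overlap. The difference was -0.46 ± 0.13 (limma adjusted p = 0.389). With all groups of the line in 1 fit the adjusted p was 0.0482, and with the animal as a replicate block 0.0464, so this call depends on how the spread is estimated. In the same comparison Prol1 was at 9.74 in both WT and at 2.52 to 2.61 in 3 of the 5 DKO glands (-3.73 ± 3.21, limma adjusted p = 0.739). B3gnt6, the other gland marker, was at 0.05 ± 0.21. The 4 myeloid markers were at -0.76 to -0.42, with sums of 28.80 to 31.62 in WT and 26.24 to 29.45 in DKO. Among the other markers the lowest were Umod (-1.45 ± 0.52), Galntl5 (-1.16 ± 0.44) and Klrd1 (-1.08 ± 0.20), and the highest was Lgals4 (0.62 ± 0.28). None of the markers was called. The part of these markers in the B4galt2 difference was not tested. Over the 4 tissues of the line the mean effect on B4galt2 was -0.17 ± 0.07 (limma adjusted p = 0.293), where 0.52% of the named probe sets and 0 of the 9 genes were called.

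B3galt6 was at 4.43, 4.67 and 4.70 in WT and at 4.81, 4.83 and 4.99 in KO brains, with no overlap and a difference of 0.28 ± 0.09 (limma adjusted p = 0.888). In KO intestine, lymph node and thyroid it was at -0.24 ± 0.14, -0.26 ± 0.17 and -0.16 ± 0.19. The mean effect of the St6galnac2 line on the 9 genes ran from -0.49 ± 0.28 (B3galt5) to 0.09 ± 0.13 (B3galt4), with 0 called and 0% of all probe sets.

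The B3galt5 differences had the widest errors. In lymph node it was at 4.79, 4.85 and 7.11 in WT and at 4.50, 4.57 and 4.61 in KO, a difference of -1.02 ± 0.65, which became -0.25 ± 0.16 without WT animal 9362, the one with high Prol1. In mammary gland it was -0.17 ± 0.98, and in brain, with WT at 7.96, 8.29 and 8.57 and KO at 7.16, 7.52 and 8.37, it was -0.59 ± 0.33 with overlap. In thymus it was 0.21 ± 0.27 with 1 WT animal and -2.02 ± 0.85 (adjusted p = 0.235) with the 2 arrays that stood apart. The test that a knockout effect differs between the tissues of a line called none of the 9 genes in either line (limma F test, lowest adjusted p among them 0.675), where 0.624% of the named probe sets were called in the B4galnt1/B4galnt2 line and 0% in the other. None of the relatives, acceptor, supply and capping genes was called in a knockout comparison of a tissue or in a mean.

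**Figure D4:**
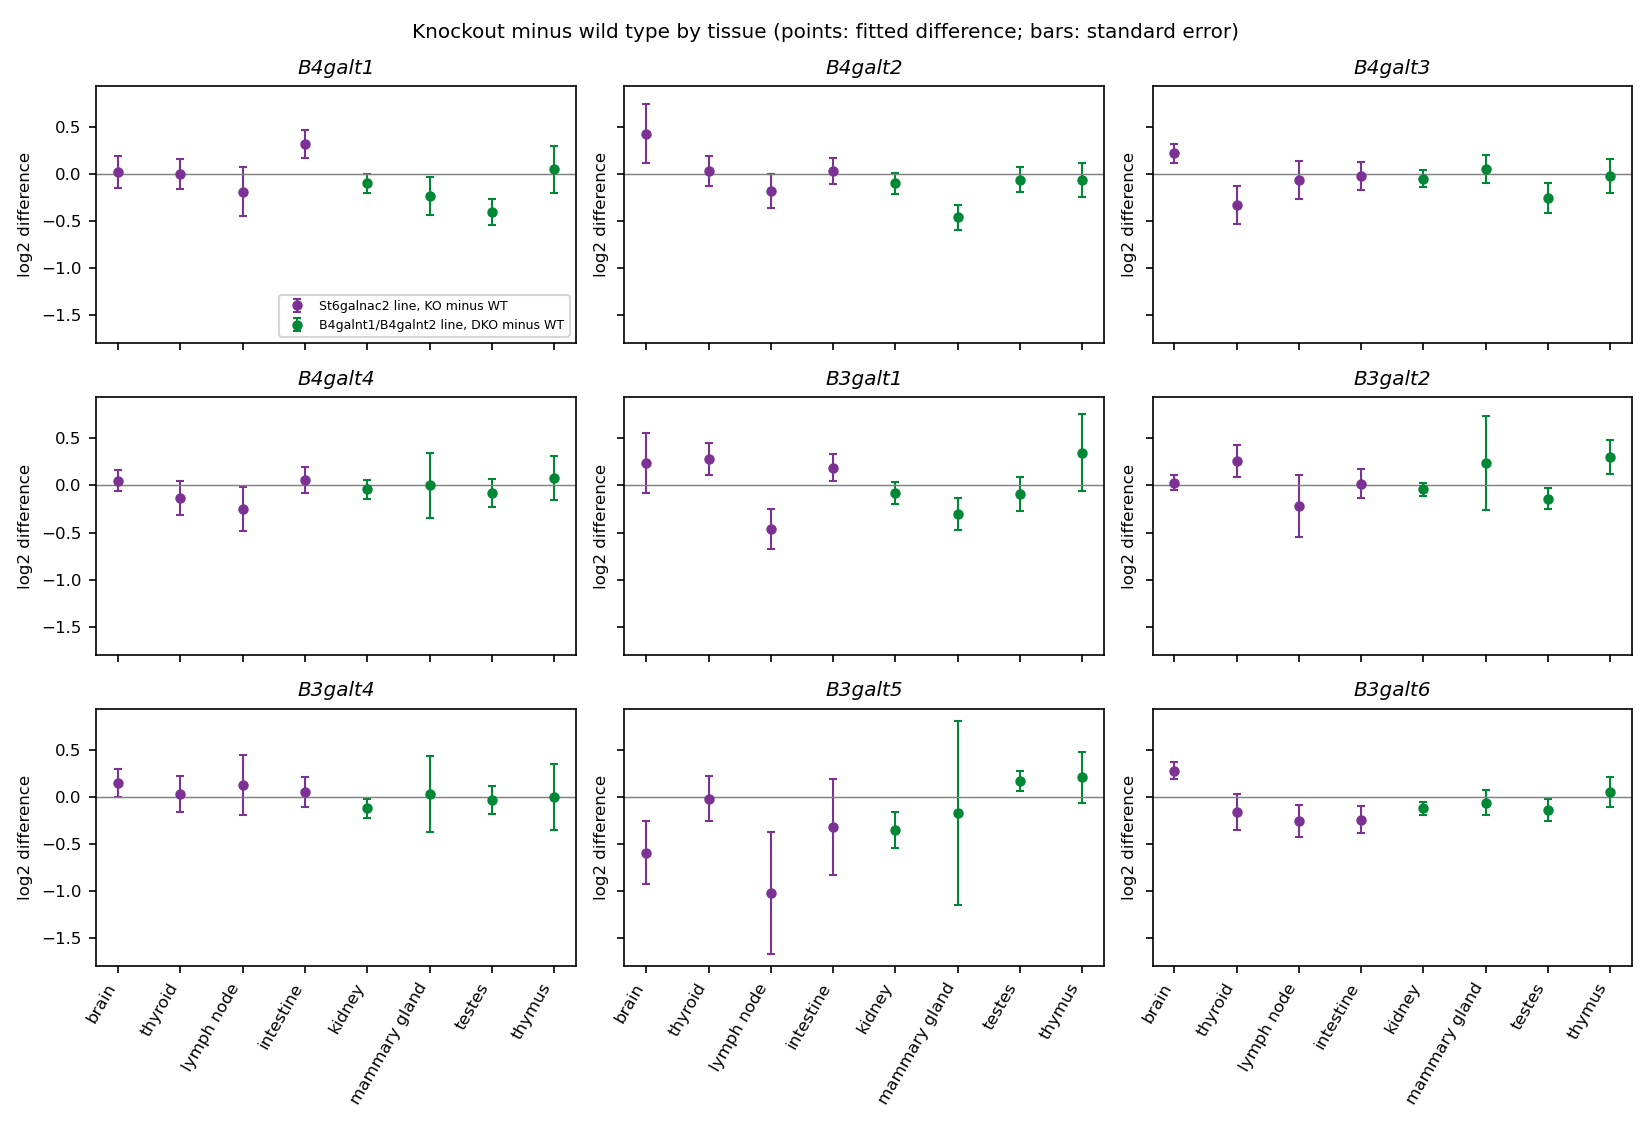
Log2 difference of KO or DKO minus WT (vertical axis, points) with its standard error (bars) for each gene in each tissue (horizontal axis); violet is the St6galnac2 line and green the B4galnt1/B4galnt2 line. Most points lie within 0.5 of 0, and the lymph node point of B3galt5, at -1.02, has an error of 0.65.

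WT animals of the St6galnac2 line were also compared with C57 WT animals, which differ in line and source at once. The C57 gut samples are labelled small intestine and those of the line only intestine, so the part of the gut may differ as well. In brain B3galt6 read 4.43, 4.67 and 4.70 in the line and 5.21, 5.43 and 5.65 in C57, with no overlap. The difference of -0.83 ± 0.14 had a limma adjusted p of 0.0764, and of 0.0446 without WT animal 9094. B3galt1 in brain was at 6.72, 7.23 and 7.67 against 7.81, 7.83 and 8.36, a difference of -0.79 ± 0.28 (limma adjusted p = 0.159). No gene of the 9 was called in either tissue (0% of all probe sets in brain and 0.104% in intestine). All named probe sets together lay lower in the line, by a median of -0.17 in brain and -0.28 in intestine, and the 9 genes by -0.35 and -0.34.

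Sex was the last comparison, in kidney and mammary gland, where both genotypes hold both sexes. B4galt1 was lower in female kidneys: the 3 females read 8.42 and 8.46 (DKO) and 8.48 (WT), and the 6 males ranged from 8.68 to 9.20 (median 8.99). Every female lay under every male. The difference was -0.49 ± 0.10 (limma with genotype in the model, adjusted p = 0.0133), and 9.04% of the named probe sets were called, 2.6% lower and 6.44% higher in female kidneys. The call rests on few females: without DKO animal N5891 the adjusted p was 0.052, without WT animal N9686 0.0973, and with all groups of the line in 1 fit 0.0784. B3galt6 was at -0.21 ± 0.08 (adjusted p = 0.114) and the other 7 genes between -0.16 and 0.16.

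**Figure D5:**
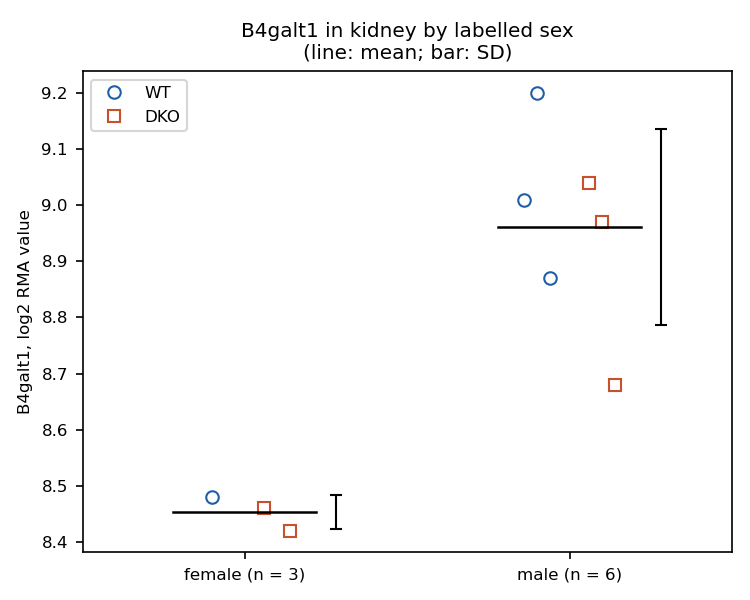
Log2 RMA value of B4galt1 (vertical axis) in kidney by labelled sex (horizontal axis), with circles for WT, squares for DKO, a line for the mean and a bar for the SD. The 3 females lie between 8.42 and 8.48 and the 6 males between 8.68 and 9.20.

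Several related genes differed in the same comparison. B3galnt1, the globoside synthase, was higher in female kidneys (1.01 ± 0.19), as was B4galt6 (0.61 ± 0.14), and B4galt5 was lower (-0.83 ± 0.19), which makes 3 of 7 relatives called. Of the capping genes 3 of 12 were higher, St3gal6 (0.52 ± 0.11), St3gal2 (0.51 ± 0.10) and St6gal1 (0.36 ± 0.10), and of the supply and removal genes Glb1 was lower (-0.55 ± 0.13). Markers of other cells moved too. Of 6 connective tissue markers 5 were higher in females (median difference 0.52), with summed levels of 48.36 to 50.03 in females and 44.84 to 47.03 in males. Of 3 kidney tubule markers 1, Vegfa, was higher (0.52 ± 0.10), with sums of 26.19 to 29.64 against 25.30 to 28.56. Vegfa was not particular to kidney (9.05, against 9.30 in mammary gland). Umod, at 12.26 in kidney and at most 5.99 elsewhere, was at 0.18 ± 0.08 and Havcr1 at 1.03 ± 0.57, neither called. Of the 6 genes listed as neural markers Ugt8a was lower (-2.95 ± 0.16), with sums of 33.12 to 33.69 against 34.94 to 37.86. In kidney Ugt8a and Fut9 were high and the other 4 lay at 2.99 to 5.75, so this sum is no measure of neural cells. Their part in the B4galt1 result was not tested. In mammary gland none of the 9 genes differed by sex (0.312% of all probe sets called), with B4galt3 at 0.49 ± 0.14 (limma adjusted p = 0.271).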

How the data were processed

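RNA of mouse tissues was hybridised as biotin-labelled cRNA, 1 sample per array. The values are log2 RMA values as deposited by the authors in 1 table of 1246 probe sets and 60 arrays; RMA is named in the submitters' processing notes, and whether all arrays were normalized together is not given in the sources used here. Array medians lay between 5.3 and 5.76, and the number of arrays limits the precision. Symbols came from RefSeq identifiers, for 962 probe sets. The members and gene lists were chosen with earlier results of these data known.

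Fits used limma 3.58.1 in R 4.3.3 on the deposited values, with Benjamini-Hochberg adjustment over 962 probe sets within each comparison, and were tested on simulated data. A tissue level is the mean of its WT and knockout group means, and C57 arrays were not in that fit. A tissue call needed an adjusted p under 0.05 and a log2 difference of at least 1, and other calls an adjusted p under 0.05. Knockout and sex effects were fitted per tissue, each adjusted for the other. Mean knockout effects had the animal as a random block, since tissues share animals; the block correlations were -0.017 and 0.052. The arrays with a correlation under 0.3 with their labelled tissue were left out. Named genes are the 9 members, up to 3 called genes with the largest differences per list and comparison, and the 3 most alike. Alternatives were all 60 arrays, WT animals only, tissues of 1 line, other covariates, blocks, scalings and filters, and each animal left out. Nothing states that replicate animals are independent litters, so p-values measure the spread between these samples.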

Additional observations from a re-analysis of the deposited data

Results flagged for a closer look

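Among 36 sets, each the values of 1 gene in a group of 4 or 5 arrays, 2 held an array far from the others, and chance alone gives about 1 in 20. Sets of different genes share the same arrays. B4galt4 in DKO kidney was at 6.03 in animal N5893, where the nearest animal was at 6.41 and the highest at 6.54, so that the gap was 0.749 of the group's range (n = 5). B3galt2 in WT kidney was at 2.54 in animal N9686, where the nearest was at 2.46 and the lowest at 2.44, a gap of 0.840 of the range (n = 4), at the low end of the array's values.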

How the results depend on the processing

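Of 72 gene and tissue pairs, 12 were called, 12 to 14 under the other alternatives, replicate block (animal) and left-out animals included, and 21 against the other tissues of the same line. There, B3galt1 in thyroid (0.90) was no longer called, and B4galt1 in intestine (1.23) and testes (-1.19), B4galt4 in lymph node (-1.27), B3galt1 in lymph node (-1.58) and B3galt4 in testes (1.39) were among those added. Knockout calls numbered 0, and 1 with all groups of a line in 1 fit, without or with the replicate block, namely B4galt2 in mammary gland; leaving out 1 animal gave 0 to 1, as it did for the C57 comparison and for the sex comparison, where 1 was called. With all groups of the line in 1 fit the sex call was B4galt3 in mammary gland (0.49, adjusted p = 0.0202, limma) and not B4galt1 in kidney. The mean effects and the test between tissues gave 0 calls under every alternative run. B3galt5 changed sign in mammary gland, where leaving out 1 animal moved the knockout difference between -0.80 and 0.40, and in thymus with all 60 arrays (-2.02). B4galt2 in brain fell under a difference of 1 in WT animals only (0.94) and after a second quantile normalization (0.99), B4galt2 in intestine after median centring (-0.95), and B3galt1 in intestine after the second quantile normalization (-0.98). Of 938 alternative values of 45 single results, 878 kept their direction and side of the threshold, 13 lost and 42 gained a call, and 5 changed sign; the cause was not tested. Low signal limits B3galt2, which lay near the bottom of the array's range.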
